A study of Mus musculus with 16 samples.

Results

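The comparison described here is that of the lamin A/C peak lists of adult cardiomyocytes with intact desmin (Des+/+) in the unstressed state, called basal, and after swimming exercise, called swim. Members were the peaks of both lists, less the peaks whose input height reached 10 reads and less those assigned to Gata4, Neil2, Mef2c or Tbx5. Of 188 basal peaks, 4 were removed for their input and 8 for their gene, which left 176. Of 635 swim peaks, 11 and 17 were removed in the same way, which left 607. Together these 783 peaks were compared here, out of 56149 peaks in the 8 lists of the series.

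The study mapped lamin A/C and acetylated histone H3 (H3K27Ac) by chromatin immunoprecipitation and sequencing (ChIP-seq) in heart muscle cells freshly isolated by enzymatic perfusion from 3-month-old mice. Both groups used here were Des+/+ and differed in swimming exercise. In the study's methods Des+/+ stands for mice that also carry a green fluorescent protein gene under the αMHC promoter, that is the promoter of Myh6, and both groups carried it. Chromatin of several mice was combined into 1 library for each antibody, genotype and condition. No spread between mice or libraries could therefore be measured, no difference below was tested, and 95% intervals (Wilson for shares, exact Poisson for heights) cover counting error only. The labels do not state how long or how often the animals swam, and every swim mouse shares a library, so exercise and the library cannot be told apart.

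Lamin A and lamin C are splice forms of Lmna and form, with the B-type lamins, the meshwork that lines the inner nuclear membrane. Chromatin in contact with this meshwork is typically gene-poor, rich in repeats and low in active marks, although lamin A/C is also found in the nuclear interior. Desmin is the muscle intermediate filament protein that joins the Z-discs to the cell membrane, mitochondria and nucleus, and it reaches the lamina through the linker of nucleoskeleton and cytoskeleton (LINC) complex. H3K27Ac marks active promoters and enhancers.

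The height of a peak is its greatest read coverage, and the smallest height in either list was 8 reads, for which the Poisson interval is 3.45 to 15.8 reads. Most peaks were near this floor, with a height of 8 or 9 reads in 136 of 176 basal peaks and in 362 of 607 swim peaks. The kept peaks covered 40.3 kb in basal and 157 kb in swim, and their highest heights were 83 and 73 reads. In the H3K27Ac list of the same swim group, all 9 of the cardiomyocyte markers examined had a peak, with a summed height of 234 reads (290 in basal). Of 8 endothelial markers 7 had one, with Cdh5 absent and a summed height of 193 reads (315 in basal), whereas 0 of 8 fibroblast and 0 of 8 leukocyte markers did. Their part in the results was not tested.

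Sequences were chosen to show where swim peaks lay at genes of the contractile apparatus. Each of the following runs is 30 bases of GRCm38, written 5′ to 3′ on the strand of the gene, and crosses from an intron (lower case) into the exon under the highest swim peak of that gene that contains such an edge. Capitals mark the first 15 exon bases. The Myh6 run is at chr14:54947208-54947237 on the reverse strand (exon 33 of 39), that of Myh7 at chr14:54972949-54972978 on the reverse strand (exon 38 of 41), that of Actc1 at chr2:114048290-114048319 on the reverse strand (exon 6 of 7), and that of Myl3 at chr9:110766606-110766635 on the forward strand (exon 3 of 7).
Myh6: ctctccgctttccagGCCTCCCTGGAGCAC
Myh7: ctctcctgcgcacagGCCGCCATGATGGCT
Actc1: agaactttttcctagGTATGGAATCTGCTG
Myl3: tgtcctttcccacagAGTTCAAGGAGGCCT

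A second set was chosen because many swim peaks annotated to an exon lay in processed pseudogenes, which are intronless copies of messenger RNAs inserted elsewhere in the genome. For 3 of the highest, the run below crosses a place where the parent transcript joins 2 exons, and capitals mark the 15 bases of the downstream exon. Gm13456 is at chr2:40556036-40556065 on the forward strand, Tpt1-ps3 at chr6:99878027-99878056 on the reverse strand, and Gm4468 at chr15:99810429-99810458 on the reverse strand. The transcript runs join exons 3 and 4 of Eef1a1, exons 3 and 4 of Tpt1, and exons 2 and 3 of Rpl37 in GENCODE M21. The runs of Gm13456 and Tpt1-ps3 had 0 mismatches to their transcripts and that of Gm4468 had 2.
Eef1a1 transcript: acaggcacatcccagGCTGACTGTGCTGTC
Gm13456: acaggcacatcccagGCTGACTGTGCTGTC
Tpt1 transcript: agactacatgaaatcACTCAAAGGCAAACT
Tpt1-ps3: agactacatgaaatcACTCAAAGGCAAACT
Rpl37 transcript: agcgcaagaggaagtATAACTGGAGTGCCA
Gm4468: agcgcaagagaaagtATAACTGGAGTGGCA

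The swim list held more exon peaks than the basal list, in number and as a share. Exons took 104 of 607 swim peaks (17.1%, interval 14.3 to 20.3%) and 6 of 176 basal peaks (3.41%, 1.57 to 7.24%). 3′ UTRs took 35 swim peaks (5.77%, 4.17 to 7.91%) and 4 basal peaks (2.27%, 0.887 to 5.70%), and 5′ UTRs took 3 swim peaks and 0 basal peaks, which allows a share of up to 1.70%. The intervals of both lists were apart for exons and overlapped for 3′ UTRs. Exons and UTRs together held 142 of 607 swim peaks (23.4%, 20.2 to 26.9%) and 10 of 176 basal peaks (5.68%, 3.12 to 10.1%). With the peaks at Gata4, Neil2, Mef2c and Tbx5 kept, they held 155 of 624 swim peaks (24.8%) and 18 of 184 basal peaks (9.78%). Introns and intergenic regions held more peaks in swim than in basal but a smaller share of the list. Intron peaks made up 18.1% of the swim list (110 peaks) and 27.3% of the basal list (48 peaks). Peaks between genes, called Distal Intergenic, made up 51.4% (312 peaks) and 62.5% (110 peaks). Promoter peaks, within 3 kb of a start, numbered 43 in swim (7.08%) and 8 in basal (4.55%).

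**Figure D1:**
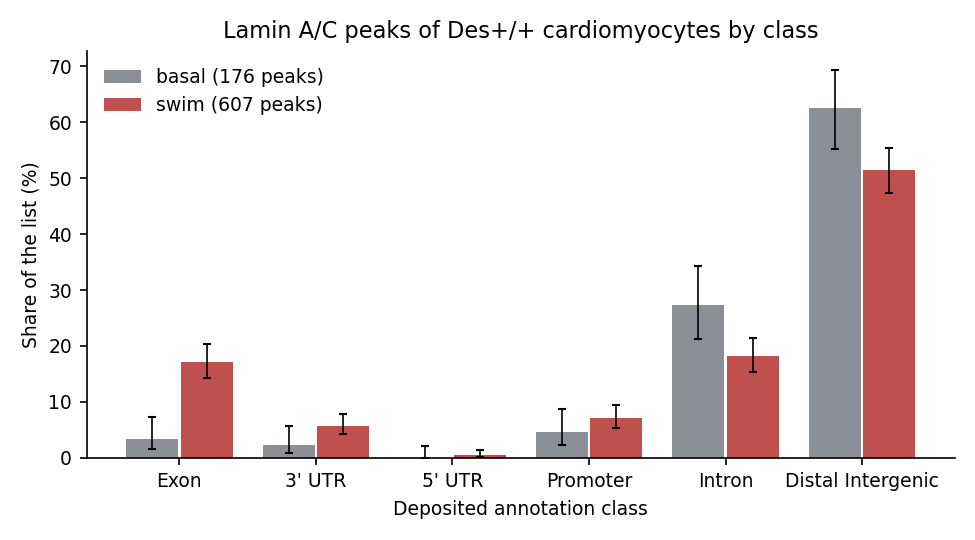
Share of each lamin A/C list in each deposited annotation class, in percent, with 95% Wilson intervals as error bars (counting error only) for 176 basal and 607 swim peaks of 1 library each. The exon bar is 17.1% in swim and 3.41% in basal, and their intervals do not overlap.

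The exon and UTR share was larger among the higher swim peaks. It was 35.9% of the 245 swim peaks of at least 10 reads, against 12.5% of the 40 such basal peaks. Among the 176 highest swim peaks, a list as long as the basal one, it was 38.1% (67 peaks). The median height was 10.5 reads for exon peaks, 10 for 3′ UTR peaks, 9 for promoter peaks, 8 for intron peaks and 8.5 for intergenic peaks of the swim list. The median input height was 2 reads in each of these classes.

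Few positions were shared by the basal and swim lists. Overlapping by at least 1 base, 17 peaks of each list had a partner, which is 9.66% of the basal list and 2.80% of the swim list. There were 590 swim peaks without a basal partner (97.2%, 95.6 to 98.2%) and 159 basal peaks without a swim partner (90.3%, 85.1 to 93.9%). Removed peaks did not count as partners. With no limit on input height, 599 of 618 swim peaks and 161 of 180 basal peaks had no partner. By nearest gene, the swim list named 398 genes and the basal list 163, of which 44 were in both. In the 17 pairs the swim peak was higher in 6, the basal peak in 10, and 1 pair was equal, and the Poisson intervals of the 2 heights overlapped in all 17.

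The highest pairs lay at the same positions at similar heights. In an intron nearest to the start of Def8, which encodes a lysosome-positioning factor, a peak at chr8:123425723-123426066 had 73 reads in swim and 74 in basal, and a second at chr8:123433934-123434278 had 69 in swim and 83 in basal, each over an input of 1 read. In an intron nearest to Zfp981, a zinc finger gene, the heights were 45 in swim and 50 in basal. Between genes nearest to 4930517M08Rik they were 38 and 43, and nearest to F11r, the junction adhesion molecule gene, they were 24 and 39. None of these 5 pairs was higher in swim. The next pairs were at exon 33 of Myh6 (nearest start Mir208a), with 21 reads in swim and 11 in basal, an exon of the chromatin remodeller gene Chd9 with 16 and 14, the 3′ UTR of Fabp4, a fatty acid binding protein gene, with 15 and 11, an intergenic site on chromosome Y nearest to Gm20747 with 14 and 10, and the promoter of 2610005L07Rik with 13 and 26. Of the 5 pairs in exons or UTRs, 4 were higher in swim, including the 3′ UTR of Atp2a2, the gene of the sarcoplasmic reticulum calcium pump SERCA2, with 12 in swim and 8 in basal. The Chd9 peak was 100% identical to the shared intergenic peak nearest to Wasf2, which had 10 reads in swim and 14 in basal. The second Def8 peak and those at F11r and Gm20747 were at least 95.1% identical to another peak of 1 group. The Zfp981 peak had 68 placements in the genome. Reads of such stretches could be placed at more than 1 site.

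The 10 highest peaks that only the swim list held lay in different kinds of sequence, among them repeats, a pseudogene, tandem gene families and exons of single genes. At chr4:112983874-112984134, in an intron of Skint6 (nearest start Skint10), the height was 38 reads (Poisson interval 26.9 to 52.2). Peaks nearest to Cox7c on chromosome 13 (34 reads) and to Atp6v1h on chromosome 1 (32 reads) came next among intergenic peaks. All 3 consisted wholly of repeat-masked sequence, with at least 2000 other copies in the genome at 90% identity, and they were alike in sequence among themselves. Both peaks of 35 and 25 reads assigned to Lrp1b lay in the processed pseudogene Gm13456. Mb, the gene of myoglobin, had 29 reads in its last exon at chr15:77015599-77016184, and Malat1, a nuclear long noncoding RNA gene, had 25 in its promoter class. Gm17019 and Speer4d, both in a region of tandemly repeated Speer genes on chromosome 5, had 27 each, and an intron of Dock2, a guanine nucleotide exchange factor gene of blood cells, had 23. The highest peaks held only by the basal list were lower, at 20 reads nearest to Gm17019 and Ccr1, 15 nearest to Mrln, Gm10354 and Speer4d, 14 nearest to Mir6388 and Gm9758, 13 nearest to Potefam3e and 12 nearest to Mir6388 and 1700025K24Rik, and 0 of these 10 had their location in an exon.

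The single base given as the location of each peak was then placed on the reference annotation (GENCODE M21), whatever the deposited class. In the swim list it lay in an exon of a protein-coding gene in 93 of 607 peaks (15.3%, 12.7 to 18.4%), and in the basal list in 9 of 176 (5.11%, 2.71 to 9.43%). Exons of such genes make up 3.52% of the genome. It lay in a processed pseudogene in 59 swim peaks (9.72%, 7.61 to 12.3%) and in 2 basal peaks (1.14%, 0.312 to 4.05%), whereas processed pseudogenes make up 0.268% of the genome. All 59 were annotated as exon peaks, so that they made up most of that class, while 26 of the 104 exon peaks, 32 of the 35 3′ UTR peaks, all 3 5′ UTR peaks and 32 of the 43 promoter peaks lay in exons of coding genes. Of the 93 peaks 89, and of the 59 peaks 58, had no basal partner, near the 97.2% of all swim peaks. These kinds were not wholly separate, since a location in both was counted as a coding exon. Among the 93 were Gm9385, typed as a processed pseudogene, and an exon of Tmcc1 whose peak matched the H2afz transcript at 99.6% identity.

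**Figure D2:**
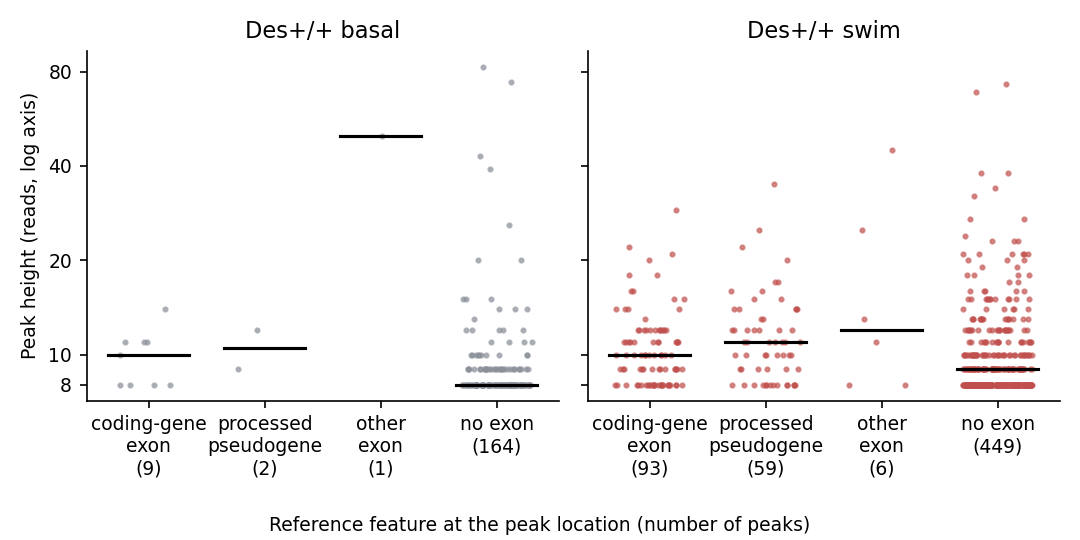
Height in reads (log axis) of every kept peak of the basal and swim lists, by the reference feature at the peak's location, where each point is a peak, the black line is the median and the number of peaks is in brackets. In swim the medians are 10 reads in coding-gene exons and 11 in processed pseudogenes, and 9 where no exon lies.

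Contraction genes were among the coding genes with swim peaks. By nearest gene, 7 of 42 (16.7%, 8.32 to 30.6%) of the thick filament, thin filament and Z-disc genes had a swim peak and 0 had a basal peak, whereas 1.48% of all protein-coding genes had a swim peak and 0.585% a basal peak. Of 14 thick filament genes these were Myh6, Myh7 and Myl3, the α and β cardiac myosin heavy chains and an essential light chain. Of 11 thin filament genes they were Actc1, Tnnt2, Tpm1 and Lmod2, which encode cardiac actin, troponin T, tropomyosin and the filament-elongating leiomodin. Counted by the gene body that a peak overlapped, Myoz2, of the Z-disc list, was added (8 reads, nearest start Usp53), for 8 of 42 genes in swim, and Myh6 alone had a basal peak. The lists were drawn up with earlier results of these data known, so that these counts describe the peaks only. At a height of at least 12 reads 4 of the 7 were left.

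Myh6 held the most swim peaks of any contraction gene. Over its gene body there were 9, at heights of 21, 20, 15, 14, 12, 11, 10, 9 and 8 reads over inputs of 1 to 5 reads, whereas the basal list had 1, of 11 reads, at exon 33. The deposited annotation gave 5 of the 9 to Myh6 and 4 to Mir208a, a microRNA gene inside Myh6. They lay between 13.7 and 24.6 kb from the start of the 25.0 kb gene, and all overlapped exons, covering 1503 of its 6726 exon bases and 0 of 9313 bases of deep intron, that is intron over 150 bp away from exons. No peak of either list lay within the first 13.7 kb of the gene. Myh7 had 1 peak of 18 reads in an exon. It was 97.7% identical in sequence to the 14-read peak of Myh6, so that some reads of this stretch could be placed at either gene. The 15-read peak of Myh6 had its best transcript match to Myh7, at 100% identity, although the peak as a whole had 1 placement in the genome.

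**Figure D3:**
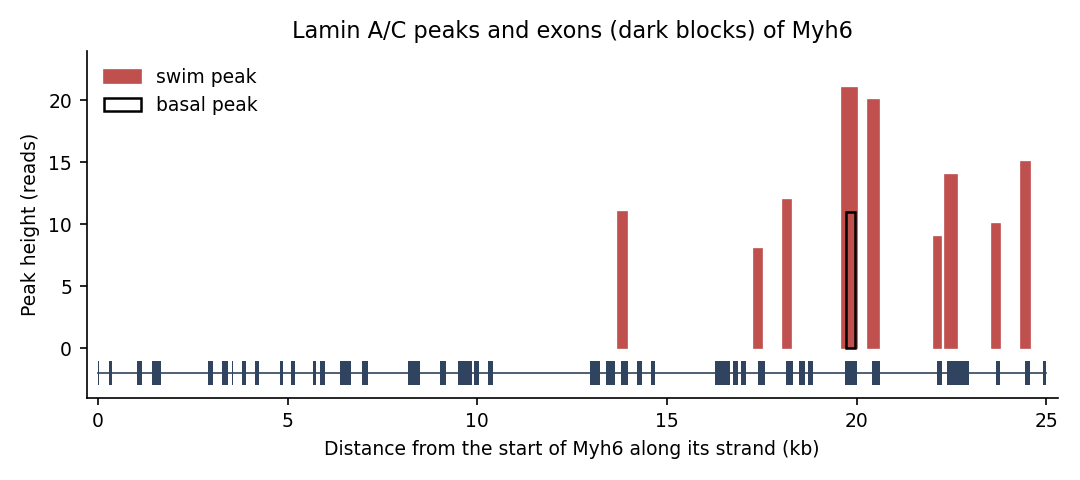
Lamin A/C peaks over Myh6, with distance from the gene's start along its strand in kb on the horizontal axis, peak height in reads on the vertical axis, swim peaks as filled bars, the basal peak as an open bar and exons as dark blocks. The 9 swim peaks stand between 13.7 and 24.6 kb, and the basal peak of 11 reads lies inside the swim peak of 21.

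Actc1 had 4 swim peaks of 12, 12, 11 and 10 reads, in exons 4, 5 and 6 of 7 and in its 3′ UTR, and none in basal. They covered 729 of 1618 exon bases (45.1%). Tnnt2 had 1 peak of 12 reads in its last exon, Myl3 1 of 11 reads in exon 3, Tpm1 1 of 10 reads in its last exon and Lmod2 1 of 8 reads in its 3′ UTR class. All of these swim-only peaks, except those of Myh6 and Actc1, stood alone in their gene.

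Genes of energy metabolism had peaks in the swim list alone, whereas those of calcium handling had peaks in both. Of 36 energy metabolism genes 7 (19.4%) had a swim peak and 0 a basal peak, beside 1.48% and 0.585% of all protein-coding genes. Mb had 2 swim peaks of 29 and 16 reads, Lpl, the lipoprotein lipase gene, 2 of 12 and 11, Atp5b, a subunit of the ATP synthase, 1 of 12, Slc25a4, the heart adenine nucleotide carrier, 1 of 10, Cox4i1, of cytochrome c oxidase, 1 of 10, Vdac1, the outer membrane channel, 1 of 9, and Slc25a3, the phosphate carrier, 1 of 8. By gene body, 2 of 13 calcium handling genes had a swim peak and 2 a basal peak. In swim they were Atp2a2 (12 reads, assigned to Anapc7) and Pln, the gene of its inhibitor phospholamban (10 reads, assigned to Cep85l), both in the 3′ UTR, and in basal Atp2a2 and Trdn, the triadin gene (8 reads each). By nearest gene this list had 0 of 13 in swim and 1, Trdn, in basal. Of 8 fibroblast markers Dcn, the decorin gene, had a swim peak of 9 reads in its last exon while it had no H3K27Ac peak, and 0 of 8 endothelial and 0 of 8 leukocyte markers had one.

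The swim peaks in coding exons were not limited to muscle genes. Among the 93, and picked after their values were seen, were peaks at Eef1a1 (22 and 14 reads) and Eef2 (11 and 10), which encode translation elongation factors, Tmsb4x, the thymosin β4 gene (18), Sparc, a matrix protein gene (14), Actb (12 and 9) and Actg1 (10), the non-muscle actins, and Hba-a2 (11), Hba-a1 (8) and Hbb-bs (8), the haemoglobin genes of red blood cells. The peaks of Hba-a2 and Hba-a1 were 99.5% identical, so their reads could be placed at either gene. Of 21938 protein-coding genes 75 (0.342%) had a swim peak location in an exon. Over the 69 of them with more than 1 exon, swim peaks covered 20467 of 319970 exon bases (6.40%) and 1634 of 2391563 deep intron bases (0.0683%). The genes were chosen for an exon peak, so the first share is fixed above 0. The intron cover came from 4 of the 69 genes, Zfp980, Gm15319, 2410141K09Rik and Zfp984, which all lie in runs of peaks along tandem gene families, and the others had none.

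Within coding genes, peaks lay mostly in the last exon, and those of internal exons were not centred on the exon. Of 78 peaks that could be placed in a consensus coding transcript, 44 were in the last exon, 29 in an internal exon and 5 in the first. Some last exons were long, up to 4644 bp in Fem1c. The share of exon bases in last exons was not computed, so these counts show no preference for them. In 26 of the 29 internal exons the peak ran past the 5′ edge of the exon into the preceding intron, and in 8 of 29 past the 3′ edge into the following one. It reached farther past the 5′ edge in 25 of 29, namely in 5 of 7 genes' peaks on the forward strand and in 20 of 22 on the reverse strand. The 22 came from 14 genes, with several each from Myh6 and Actc1, and peaks of the same gene are not independent. Whether the direction follows the gene was not tested. The median reach was 54 bp past the 5′ edge, and at the 3′ edge the median peak stopped 16 bp short of it. The run of Actc1 exon 6 printed above lies in such a peak, which began 74 bp before the exon. In the basal list 2 peaks lay in internal exons, too few to compare.

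**Figure D4:**
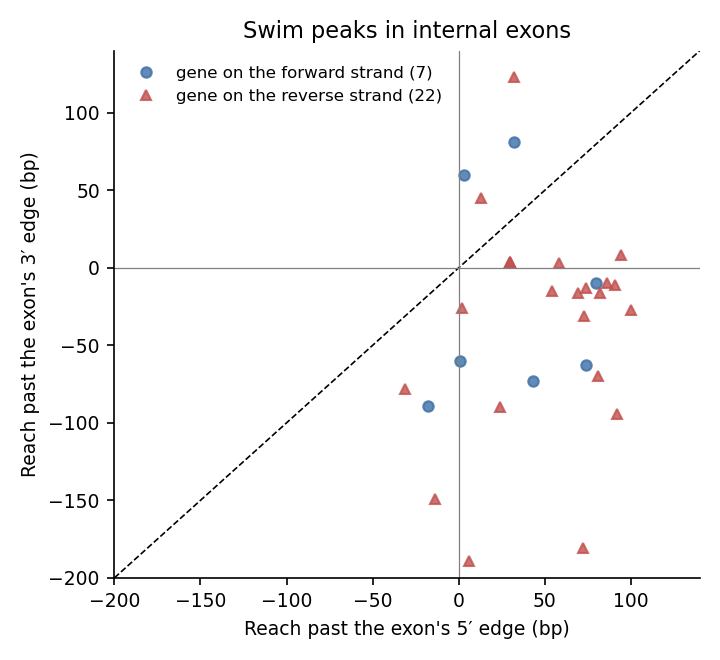
Each point is a swim peak in an internal exon of a coding gene (29 peaks of 21 genes), with its reach past the exon's 5′ edge on the horizontal axis and past the 3′ edge on the vertical axis, both in bp, where negative values mean that the peak stopped inside the exon. Below the dashed line of equal reach lie 25 peaks, 5 of the 7 of forward-strand genes and 20 of the 22 of reverse-strand genes.

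The 59 pseudogene peaks lay in 54 of the 10236 processed pseudogenes of the reference (0.528%). Of the 59, 57 matched a transcript of a protein-coding gene at 90% identity or more over at least 50% of their length, with identities of 94.4 to 100% and a median of 99.0%. Their 44 parent genes included 28 ribosomal protein genes, 10 of the small and 18 of the large subunit, which accounted for 33 peaks. This grouping was made after the names were seen. Taking whole pseudogenes, 50 of these 54 matched a transcript and 32 of the 50 (64.0%) a ribosomal protein transcript, whereas of all processed pseudogenes 4596 matched and 1095 of these (23.8%) did so to a ribosomal protein transcript. Eef1a1 was the parent of 5 peaks in 3 pseudogenes, Rps4x of 4 in 3 and Eef1g of 3 in 1. Among the highest were both peaks of Gm13456 (35 and 25 reads), Tpt1-ps3 (22), Gm4468 (20, parent Rpl37), Gm5845 (17, parent Rpl7a) and Rps3a3 (17, parent Rps3a1). Reads of a shared stretch could be placed at the parent or at any copy, since the median such peak had 8 placements in the genome and only 3 had 1.

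For 0 of the 59 pseudogene peaks did the nearest-gene column name the pseudogene. The genes it named were neighbours at a median distance of 45.9 kb and at most 735 kb. So 3 of the 4 peaks given to Lrp1b, a lipoprotein receptor gene, were in Gm13456 and in Gm13461 (11 reads, parent Ran), 3 of the 4 given to Nucb2 were in Gm4366 (10, 8 and 8 reads, parent Eef1g), and 2 of the 3 given to Pcsk5 were in AC133509.1 (14 and 11 reads, parent Eef1a1).

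The H3K27Ac list of Des+/+ swim held a peak for 7166 genes by nearest gene, with a median height of 23 reads for the highest peak of a gene, and a peak for 30.3% of all protein-coding genes. Of 120 genes nearest to an exon or UTR swim peak, 51 had one (42.5%, 34.0 to 51.4%), with a median of 27 reads. By class the share was 28 of 87 genes for exons (32.2%, 23.3 to 42.6%, median 26.5 reads), 24 of 34 for 3′ UTRs (70.6%, 53.8 to 83.2%, 27 reads) and 22 of 37 for promoters (59.5%, 43.5 to 73.7%, 37.5 reads). Introns and intergenic regions, the classes richest in repeats, had the lowest shares. It was 19 of 81 for introns (23.5%, 15.6 to 33.8%, 19 reads) and 42 of 204 between genes (20.6%, 15.6 to 26.7%, 24 reads). The interval for intergenic peaks lay below the 30.3% of all protein-coding genes and those for 3′ UTRs and promoters above it, while those for exons and introns contained it.

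The exon class held all 59 pseudogene peaks, and its share without them was not computed. Of 51 genes nearest to a matched pseudogene peak, 13 had an H3K27Ac peak (25.5%, 15.5 to 38.9%), with a median of 23 reads, whereas of the 44 parent genes 34 had one (77.3%, 63.0 to 87.2%), with a median of 28 reads. The share among the parents of all processed pseudogenes was not computed, so the 77.3% is not shown to be particular to swim peaks. Hspa8 (93 reads), Vdac2 (92) and Rpl21 (81) had the highest among the parents, while 10, including Tpt1, Rps4x and Rpl7a, had none assigned. Of the 77 genes that held the 93 coding-exon peak locations, 75 of them protein-coding by the type the reference gives, 49 had an H3K27Ac peak (63.6%, 52.5 to 73.5%, median 29 reads), among them Slc25a3 (62 reads), Atp2a2 and Cox4i1 (57 each), Atp5b (42), Myoz2 (39), Myh6 (37), Slc25a4 and Vdac1 (36 each), Lpl (34), Mb (29), Actc1 and Tpm1 (27 each), Pln (26), Myl3 (25), Tnnt2 (24) and Myh7 (17). Lmod2, whose peak overlapped an exon by 29.5% of its length but had its location outside it, had 30. Of the lamin A/C peaks themselves, 15 of 607 in swim (2.47%) overlapped an H3K27Ac peak of Des+/+ swim, and 3 of the 142 in exons or UTRs (2.11%). Among swim promoter peaks 6 of 43 did (14.0%), and among all basal peaks 1 of 176 (0.568%). How many would overlap by chance was not computed.

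**Figure D5:**
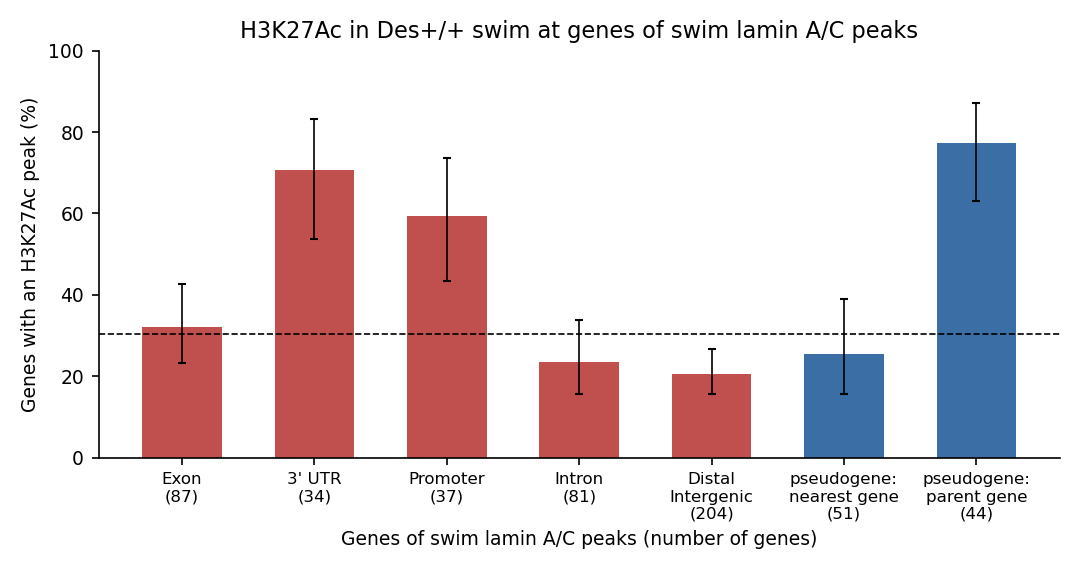
Percent of genes with an H3K27Ac peak in Des+/+ swim, with 95% Wilson intervals as error bars, for the genes nearest to swim lamin A/C peaks of each class and for the neighbours and parents of the pseudogenes under swim peaks (number of genes in brackets). The dashed line is the 30.3% of all protein-coding genes, and the parents stand at 77.3% against 25.5% for the neighbours. The share for the parents of all processed pseudogenes was not computed.

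Many swim peaks stood several to a gene. By nearest gene, 83 genes had 2 or more swim peaks, holding 292 of 607 peaks (48.1%), against 7 genes with 20 of 176 peaks (11.4%) in basal. Of all protein-coding genes, 0.283% had 2 or more swim peaks. The count depended on the assignment to the nearest start, and 36 genes had 2 or more when a peak was given to the gene body it overlapped. In swim 38 genes had 2 peaks, 19 had 3, 15 had 4 and 11 had 5 or more. In basal, Mir6388 had 7, Esp34 had 3 and Def8, Gm2516, Gm45351, Gm7609 and Tbx15 had 2 each.

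Most of these peaks were runs along tandemly repeated gene families. Peaks of the swim list at most 250 kb apart formed 15 runs of 5 or more, with 206 peaks (33.9%), whereas the basal list formed 2 such runs with 11 peaks (6.25%). The swim list is longer, and runs were not counted in lists of equal length. The longest run, of 36 swim peaks at chr12:115151976-116008940, included the 35 peaks assigned to Mir6388, 8 to 16 reads high, and held 8 basal peaks. A run of 10 lay along Myh6, Mir208a and Myh7, with a median of 1 genome placement. On chromosome 5, the 3 or 4 swim peaks each of Gm9758, Gm17019, Gm10354 and Speer4e lay in a run of 14, and those of Gm21190, Speer4c, Speer4cos and Speer4d in a run of 17, at heights up to 27 reads.

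Zinc finger genes, which encode DNA-binding repressors, were the neighbours of several runs. On chromosome 4 these runs included the 7 peaks each of 4933438K21Rik, Zfp982 and 1700095A21Rik, the 4 of Zfp980 and the 3 each of Zfp981, Zfp990, Gm13034 and Rex2. A run of 17 on chromosome 13 held the 8 peaks of Zfp998, the 5 given to Uqcrb, whose start is up to 229 kb away, and the 4 of Zfp997. The basal list had 0 peaks within the runs at chr4:147028876-147759103 and chr13:65931446-66850959, and 2 within that of 1700095A21Rik and Zfp981, of which 1 was shared. Gm7762 had 4 peaks beyond that run on chromosome 13, where Prl2c2 and Prl2c3, prolactin family genes, had 5 each in another.

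Vomeronasal receptor genes on chromosome 7 included Vmn2r44 with 6 peaks and Vmn2r33, Vmn2r43 and Vmn2r49 with 3 each. On chromosome X, Btbd35f10 had 9, Spin2-ps1 4, and Btbd35f14, Btbd35f18, Gm382 and Gm5925 had 3 each. Chromosome X had 49 swim peaks (8.07%, 6.16 to 10.5%) and 0 of 176 basal peaks, which allows up to 1.70%, while chromosome Y had 5 and 4. In the lamin A/C lists of desmin-null (Des-/-) cardiomyocytes, chromosome X had 65 of 785 basal peaks (8.28%) and 65 of 507 swim peaks (12.8%). The Des+/+ basal list alone had none. The study used mice regardless of sex, and the sex of those in each library is not given in the sources used here. On chromosome 14, 1700001F09Rik had 4 and Ccdc202 3. The other genes with 3 or 4 swim peaks were Lrrc4c, Mir7094-2, 6820431F20Rik and Sp140l2, beside Myh6, Mir208a, Actc1, Lrp1b, Nucb2 and Pcsk5.

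Of the 45 genes with 3 or more swim peaks, Myh6, Mir208a and Actc1 alone had a median of 1 genome placement per peak. The median was 24 for Btbd35f10, 21.5 for Vmn2r44, 21 for Zfp998, 3 for Mir6388 and 2 for Prl2c2.

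Repeat-masked sequence took a larger share of the intron and intergenic peaks than of the exon and UTR peaks. At least 50% of the peak was repeat-masked in 154 of 312 intergenic swim peaks (49.4%) and 38 of 110 intron peaks (34.5%), but in 11 of 104 exon peaks (10.6%) and 2 of 35 in 3′ UTRs. In basal the intergenic share was 47.3% and the intron share 37.5%. More than 1000 placements were found for 55 intergenic and 13 intron swim peaks, and for 0 exon or UTR peaks. A single placement was counted for 186 of 607 swim peaks (30.6%) and 85 of 176 basal peaks (48.3%). This count includes any peak for which no placement passed the limits. By swim class a single placement was counted least often for exon peaks, at 17.3%, against 26.0% of intergenic, 37.3% of intron and 62.9% of 3′ UTR peaks. In the swim list 83 peaks (13.7%) fell into 26 groups of peaks at least 90% identical to another of the group, the largest of 13 peaks on 9 chromosomes.

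Genes of neuronal adhesion and synapses were nearest to peaks in both lists. Of 41 such genes, 7 had a swim peak by nearest gene (17.1%, 8.53 to 31.3%, against 1.48% of all protein-coding genes) and 5 a basal peak (against 0.585%), and 0 had an H3K27Ac peak in swim. In swim these were Lrp1b (4 peaks, highest 35 reads) and Lrrc4c (4, highest 13), Cntnap5a (2, highest 14), Csmd3 (2, both of 8), Dpp10 (15), Cntn4 (8) and Cdh10 (8). In basal they included Nrxn3 (9 reads) and Csmd3, Ctnna2 and Robo2 (8 each), and Csmd3 alone was in both. By the gene body that a peak overlapped, 6 had a swim peak and 3 a basal peak, and those in swim were Nrg3 (9 reads) and Cntn4, Cntnap5a, Csmd1, Ctnna2 and Lrrc4c (8 each). Lrp1b had 0 peaks over its body, its peak of 35 reads being that in Gm13456. For the genes with 2 or more swim peaks, the median placements were 8 (Lrp1b), 1001 (Lrrc4c), 1000.5 (Cntnap5a) and 2 (Csmd3). Their peaks lay up to 198, 1695, 1787 and 999 kb from the start, in that order. Of 15 genes of the lamina and the LINC complex 0 had a swim peak and 1, Syne1, which encodes nesprin-1, had a basal peak of 8 reads.

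Swim peaks in exons or UTRs were also compared with the lists of desmin-null (Des-/-) cardiomyocytes. Of the 142, 22 (15.5%, 10.5 to 22.3%) overlapped a Des-/- basal peak and 7 (4.93%, 2.41 to 9.83%) a Des-/- swim peak. Over all 607 swim peaks these shares were 10.4% (63 peaks, 8.20 to 13.1%) and 6.10% (37 peaks, 4.45 to 8.29%), and the intervals overlapped. Of the 59 pseudogene peaks 10 (16.9%, 9.48 to 28.5%) had a Des-/- basal partner and 2 (3.39%, 0.935 to 11.5%) a Des-/- swim partner, and these intervals also overlapped those of the whole list.

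At the limit on input, the kept peaks with the highest input, of 9 reads, lay nearest to Gm17019 and Ccr1 in basal (20 reads each) and to Gm21083 (21), Speer4c (20) and Setbp1 (20) in swim. The removed peaks with the lowest input, of 10 reads, lay at Speer4c in basal (22 reads) and at Gm21190 (22) and Speer4cos (23) in swim. The removed Speer4c peak of basal overlapped the kept Speer4c peak of swim.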

How the data were processed

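Per the labels and the study's methods, the authors aligned single-end reads to GRCm38 (mm10) with Bowtie2 2.4.4 at default settings, sorted them with SAMtools 1.13, detected peaks relative to the matching input by in-house scripts and annotated them with ChIPseeker 1.36.0. The deposited heights of peak and input are a coverage signal in reads; the deposited fold is the ratio of both, and the deposited p-value and false discovery rate were not used as results. Whether duplicate reads were removed is not given in the sources used here. The files hold no read total per library, so list lengths could not be set against depth. A read fitting several places is reported at 1 of them.

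Here 6 of the 8 lists were used. Peaks were kept below an input height of 10, and peaks overlapping by 1 base were shared. Peak sequences were aligned with minimap2 2.31 to GRCm38.p6 (placements at 90% identity over 80% of the peak) and to GENCODE M21 coding transcripts, with pandas 2.3.3, SciPy 1.17.1 and Python 3.11.15. A peak with no such placement was counted as having 1. Symbols were matched to RefSeq by gene number. With 1 library a side no test was possible; overlap and interval functions were tested on simulated data. Named were all genes with 3 or more swim peaks, list genes with a peak (at most 10 neuronal ones), and genes of the 10 highest swim-only, basal-only and shared peaks; others were chosen after their values were seen, and a few items are not reported here. The members and gene lists were chosen with earlier results of these data known. Alternatives changed the input limit, minimum height, excluded genes, chromosomes, overlap, list length, gene assignment and H3K27Ac list.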

Additional observations from a re-analysis of the deposited data

Results flagged for a closer look

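The exon and UTR share of lamin A/C peaks moved in opposite directions in the 2 genotypes. It was 17.7 percentage points higher in swim than in basal in Des+/+, from 5.68% of 176 peaks to 23.4% of 607, and in Des-/- it changed by -4.72 points, from 12.6% of 785 peaks (interval 10.5 to 15.1%) to 7.89% of 507 (5.85 to 10.6%). Each share comes from 1 library, so the difference between the genotypes was not tested.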

How the results depend on the processing

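The 590 swim peaks without a basal partner fell to 234 at a height of at least 10 reads, 136 at 12 reads and 164 when only the 176 highest were taken, and the 159 basal peaks without a swim partner to 29 and 15 at these heights. The exon and UTR share of the swim list was 35.9%, 37.1% and 38.1% under the same 3 settings, with 12.5%, 9.09% and 5.68% in basal. Contraction genes with a swim peak fell from 7 to 4 at 12 reads. Genes with 2 or more swim peaks fell from 83 to 39, 23 and 29 under these settings and to 36 when peaks were given to the gene body they overlapped. Of genes with an exon or UTR swim peak, 52.1% had an H3K27Ac peak at 12 reads, and their median H3K27Ac height was 35 in the basal H3K27Ac list. In each of the first 3 settings fewer peaks enter by construction. Another 45 of the 60 alternative values stayed within the limits set for a change (1.5 times for counts, the interval of the value itself for shares and medians), and none reversed. Most peaks had a height of 8 or 9 reads, so a site absent from a list may lie just under its floor. No paired analysis was possible because each group has 1 library, and leaving out a replicate was not possible for the same reason.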
